A study of Homo sapiens with 6 samples.

Results

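The miRNA content of Caco-2 cells was described from the 3 input libraries of an m7G immunoprecipitation experiment. Caco-2 is an established human colorectal adenocarcinoma line that takes on features of intestinal epithelium in culture. The 3 input libraries, of 6 libraries in the series, were taken by their label, and each is an aliquot of total RNA set aside before immunoprecipitation. The cells were grown in serum-supplemented medium with no treatment named, and the RNA had been decapped and heat-denatured. All 3 libraries come from a single line, and the labels do not say whether they come from separate cultures, so the spread between them and every p-value below may be technical only.

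MicroRNAs are short regulatory RNAs cut from hairpin precursors by Drosha and then Dicer. Dicer leaves a duplex of a 5p and a 3p arm, and an Argonaute protein keeps mainly a single arm, which pairs with messenger RNAs through its seed, bases 2 to 8. miRNAs with the same seed form a family, and hairpins that lie close together on a strand are often cut from a shared primary transcript. In intestinal epithelium the best-known miRNAs are miR-192, miR-194 and miR-215, together with the miR-200 family of epithelial cells in general.

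Mature sequences of members of the leading seed families are given here 5′ to 3′, with the seed in capitals. miR-194-5p, outside those families, is added as an intestinal miRNA. miR-30d-5p, at 11.4% of counts, is left out because no sequence was found for it. The sequences are RefSeq entries on GRCh38.p14, and they are shown because the abundance of this line is carried by so few seeds.
miR-372-3p: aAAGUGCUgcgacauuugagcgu
miR-373-3p: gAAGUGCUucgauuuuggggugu
miR-21-5p: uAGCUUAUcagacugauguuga
miR-92a-3p: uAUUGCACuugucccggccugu
miR-25-3p: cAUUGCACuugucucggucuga
miR-192-5p: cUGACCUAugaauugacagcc
miR-215-5p: aUGACCUAugaauugacagac
miR-194-5p: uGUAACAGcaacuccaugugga
miR-26a-5p: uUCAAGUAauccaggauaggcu
miR-148a-3p: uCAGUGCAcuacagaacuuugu
let-7f-5p: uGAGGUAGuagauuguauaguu
let-7a-5p: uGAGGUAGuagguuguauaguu
let-7g-5p: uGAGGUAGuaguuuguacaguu
let-7i-5p: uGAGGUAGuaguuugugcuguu
miR-200c-3p: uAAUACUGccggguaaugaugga
miR-200b-3p: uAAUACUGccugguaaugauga
miR-429: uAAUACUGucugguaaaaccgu

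Counts on 2588 mature miRNAs came to 16652506, 19628046 and 16466178 in Input replicates 1, 2 and 3. These totals can hold a read more than once, as set out below. Levels are given as CPM, the counts scaled per 1e6 of these totals, with the mean ± SD of n = 3 libraries. A floor of 3 counts corresponds to 0.180, 0.153 and 0.182 CPM in Input replicates 1, 2 and 3, and it covers counting error only. Of the 2588 miRNAs, 1667 had at least 1 count in some library, 1223 had a count in every library, and 301 reached 10 CPM in every library. The levels of different miRNAs are compared as read counts, with no correction for how well each sequence is captured in a library.

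Properties of the count table touch the levels below. Mature miRNAs encoded by several hairpins appeared to be counted at each locus. miR-199a-3p, which has 2 hairpins, had 272, 303 and 288 counts in Input replicates 1, 2 and 3, and miR-199b-3p, which has the same sequence and 1 hairpin, had 136, 152 and 144. Among values under 1000 counts, those of miRNAs with 2 hairpins were multiples of 2 in 82.8% of cases, against 45.4% for miRNAs with 1 hairpin. The number of hairpins is therefore stated in brackets where it exceeds 1 for the leading and listed miRNAs, and the level divided by that number is given where the order changes. In addition, among miRNAs with a RefSeq position, 76 of the 83 whose locus overlaps another mature miRNA on the opposite strand (91.6%) were listed at 0 in all 3 libraries, against 722 of 2198 without such an overlap (32.8%). miR-103a-3p, miR-203a-3p and miR-371a-3p, chosen after their values were seen, were among these, and a 0 for such a miRNA is not read as a lack of expression.

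Caco-2 input RNA was dominated by a handful of miRNAs. 3 miRNAs, miR-372-3p, miR-21-5p and miR-30d-5p, held 60.3% ± 0.658 (SD, n = 3) of all counts, and 27 miRNAs held 90% of them. At the other end, 1013 miRNAs with a mean level above 0 and under 1 CPM held 0.0239% together. The share of the 3 leading miRNAs was 60.6%, 60.7% and 59.5% in Input replicates 1, 2 and 3, so the concentration was alike in each library. The 10 leading miRNAs held 79.2% ± 0.528, the 20 leading ones 87.1% ± 0.412 and the 100 leading ones 98.1% ± 0.101 of the counts. In all, 164 miRNAs were at 100 CPM or more, 52 at 1000 CPM or more and 11 at 10000 CPM or more in every library.

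**Figure D1:**
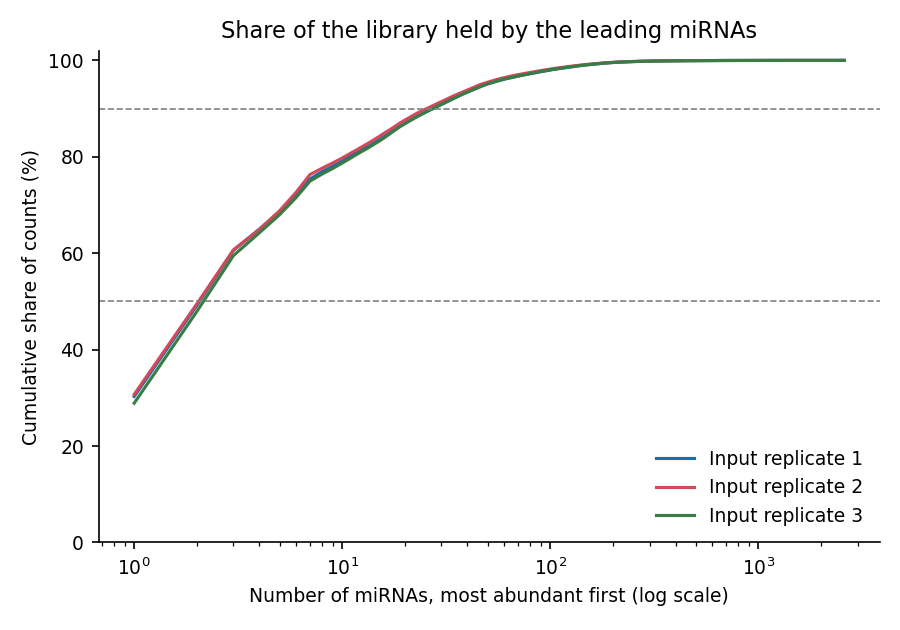
Cumulative share of counts (%) against the number of miRNAs taken from the most abundant downwards (log scale), with 1 line for each of the 3 Input libraries and dashed lines at 50% and 90%. The 3 lines nearly coincide, crossing 50% at the third miRNA and 90% near the 27th.

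The most abundant miRNA was miR-372-3p, a member of the miR-371 to miR-373 group known from embryonic stem cells and germ cell tumors. It stood at 302746, 306994 and 288785 CPM in Input replicates 1, 2 and 3. Its mean of 299508 ± 9526 CPM corresponds to 30.0% of all counts, and its lowest library lay above the highest library of every other miRNA. Its hairpin, MIR372, lies at chr19:53787890-53787956 on the plus strand (GRCh38), in an intron of a lncRNA gene on the same strand.

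miR-21-5p, widely elevated in carcinomas and a repressor of tumor suppressors such as PDCD4, came next. Its level was 188786, 187806 and 190144 CPM in the 3 libraries, a mean of 188912 ± 1174 CPM. The MIR21 hairpin lies at chr17:59841266-59841337 (plus strand), where the annotation also places an exon of the protein-coding gene VMP1. miR-30d-5p, of the miR-30 family found across epithelia, followed at 114346, 112172 and 116134 CPM, a mean of 114217 ± 1984 CPM. The ranges of these 3 miRNAs did not overlap each other or the range of the miRNA ranked next.

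Ranks 4 to 7 lay close together. miR-92a-3p of the miR-17 to miR-92 group stood at 44227, 42366 and 47402 CPM. miR-192-5p, the abundant miRNA of gut and kidney epithelium, stood at 36129, 38735 and 37440 CPM. miR-148a-3p, known for targeting the DNA methyltransferase DNMT1, stood at 33842, 38258 and 34214 CPM, and its high value was in Input replicate 2. miR-26a-5p, a repressor of the histone methyltransferase EZH2, stood at 33855, 36861 and 35437 CPM. miR-92a-3p lay above the other 3 in every library, and miR-192-5p above miR-148a-3p and miR-26a-5p in every library, although the ranges of these last 3 overlapped. miR-148a-3p was above miR-26a-5p only in Input replicate 2.

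That lead of miR-92a-3p depended on its count of hairpins. miR-92a-3p has 2 hairpins, in MIR17HG at chr13:91351314-91351391 (plus strand, exon) and at chrX:134169538-134169612 (minus strand, exon of a lncRNA gene). With every count divided by the number of hairpins and totals recomputed, an alternative chosen after seeing the data, miR-192-5p was at 40652 CPM, miR-148a-3p at 38483, miR-92a-3p at 24254 and miR-26a-5p, also with 2 hairpins, at 19213. The 3 leading miRNAs, all of single hairpins, kept their order at 325239, 205152 and 124038 CPM.

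The remaining 13 of the 20 leading miRNAs ranged from 14247 to 5537 CPM. Among epithelial miRNAs, miR-200c-3p, which represses the transcription factors ZEB1 and ZEB2, was at 14247 ± 1053 CPM and miR-200b-3p of the same seed at 10472 ± 326 CPM. The intestinal miR-194-5p, with 2 hairpins, was at 10939 ± 542 CPM. miR-182-5p, of the sensory-organ cluster miR-183, was at 7345 ± 405 CPM. miR-200c-3p lay clear of its neighbours in rank, whereas the ranges of miR-194-5p and miR-200b-3p overlapped.

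Of the let-7 family, which restrains RAS and HMGA2 and is blocked by LIN28 in embryonic cells, 3 members were among the 20. let-7f-5p (2 hairpins) was at 11045 ± 557 CPM and let-7a-5p (3 hairpins) at 7916 ± 357 CPM. let-7g-5p (1 hairpin) was at 6273, 8281 and 7186 CPM in Input replicates 1, 2 and 3, the widest spread of the 20 leading miRNAs with a coefficient of variation (CV, the SD over the mean) of 13.9%. Per hairpin, let-7g-5p at 7870 CPM ranked above let-7f-5p at 5997 and let-7a-5p at 2866, whereas by counts it was the lowest of them.

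miR-7-5p, enriched in endocrine and neural cells, was at 9440 ± 141 CPM with 3 hairpins. miR-27b-3p, a regulator of lipid metabolism, was at 8092 ± 413 CPM, and miR-378a-3p, encoded in an intron of PPARGC1B on chromosome 5, was at 7671 ± 565 CPM. miR-373-3p, encoded beside miR-372, was at 7685 ± 631 CPM, and miR-151a-3p closed the list at 5537 ± 205 CPM. miR-941 reached 8022 ± 363 CPM by counts, and its 5 hairpins lie within DNAJC5 at chr20:63919449-63919939. Per hairpin it stood at 1742 CPM, rank 43, and miR-7-5p and let-7a-5p also left the leading 20, at ranks 24 and 31. miR-532-5p, miR-20a-5p and let-7i-5p then took their places, at ranks 18 to 20.

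**Figure D2:**
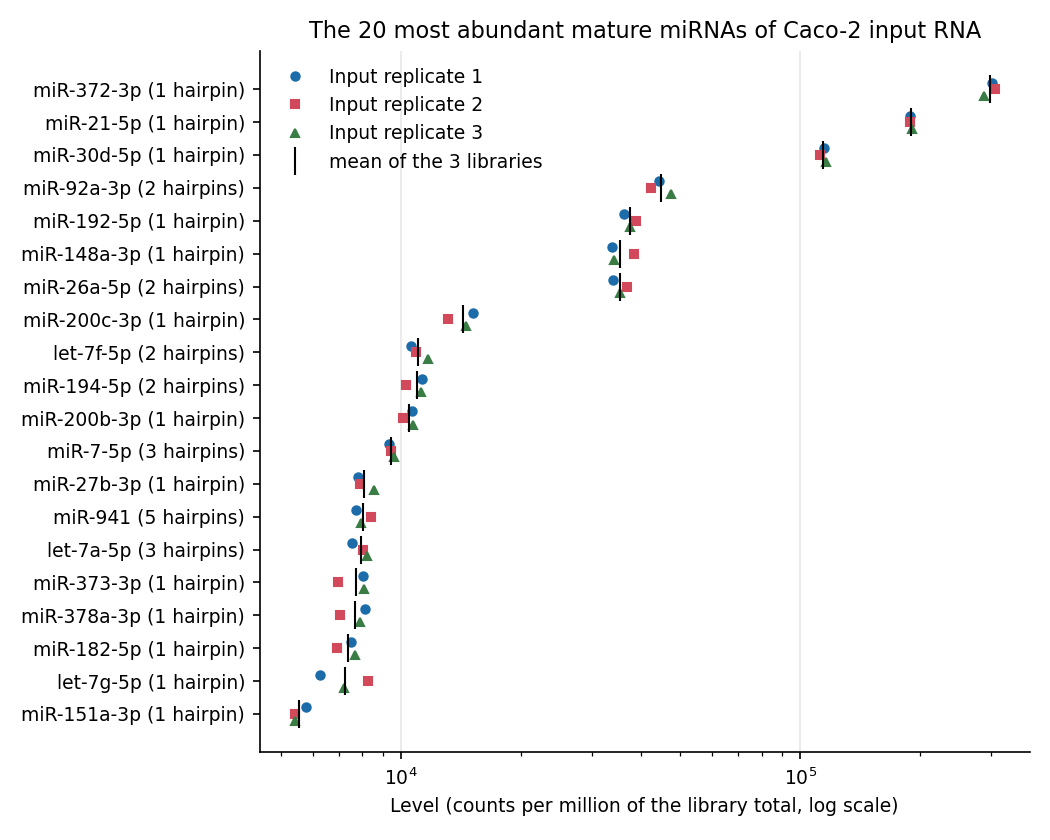
Levels of the 20 most abundant miRNAs in CPM (log scale), with 1 symbol for each Input library, a bar at the mean and the number of hairpins in brackets. miR-372-3p, miR-21-5p and miR-30d-5p stand apart on the right, and let-7g-5p shows the widest gap between symbols, from 6273 to 8281 CPM.

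Grouped by seed, the repertoire was again narrow. A sequence was found for 2281 of the 2588 miRNAs, which held 86.8% of the counts. miR-30d-5p and miR-151a-3p were not placed in a family. The family with seed AAGUGCU, which miR-372-3p shares with the miR-302 and miR-520 groups, held 31.2%, 31.5% and 29.8% of counts in Input replicates 1, 2 and 3, a mean of 30.8% ± 0.911. The AGCUUAU seed of miR-21-5p followed with 18.9% ± 0.117. The next 6 families held between 4.84% and 2.56% each. miR-30d-5p alone held 11.4% of counts, so the order of families from the third on covers only miRNAs with a sequence. That order is also by counts, not divided by hairpins. Per hairpin, as given above, miR-92a-3p, which led the third family, fell below miR-192-5p and miR-148a-3p of later families.

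Most families rested on a single member. Within AAGUGCU, miR-372-3p made up 97.2% and miR-373-3p 2.49% of the family. In the AUUGCAC family, 4.84% ± 0.259 of all counts, miR-92a-3p made up 92.3% and miR-25-3p, at 3028 ± 56.9 CPM, 6.25%. In UGACCUA, at 3.98% ± 0.112, miR-192-5p made up 94.0% and miR-215-5p, at 2400 ± 190 CPM, 6.03%. UCAAGUA was 95.1% miR-26a-5p, with miR-26b-5p at 1835 ± 134 CPM, and CAGUGCA was 96.4% miR-148a-3p, with miR-148b-3p at 1052 ± 91.4 CPM.

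The let-7 and miR-200 families were instead spread over several members. Of the let-7 seed GAGGUAG, 3.21% ± 0.206 of all counts, let-7f-5p made up 34.4%, let-7a-5p 24.7%, let-7g-5p 22.6% and let-7i-5p 13.97%. let-7e-5p and let-7b-5p made up 1.55% and 1.16% of it, at 497 ± 47.1 and 372 ± 12.1 CPM. These shares count let-7f-5p at 2 hairpins and let-7a-5p at 3. Per hairpin the order was let-7g-5p at 7870 CPM, let-7f-5p at 5997, let-7i-5p at 4868 and let-7a-5p at 2866. Of AAUACUG, 2.56% ± 0.133 of all counts, miR-200c-3p made up 55.6%, miR-200b-3p 40.9% and miR-429 3.56%. By counts, no member of these 2 families held over 55.6% of its family, against at least 92.3% for the leading member of the other 6. The latter shares count miR-92a-3p and miR-26a-5p at 2 hairpins each, and miR-25-3p and miR-26b-5p at 1. Per hairpin those 2 leading members would hold less of their families.

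By position, 351 of 1902 hairpins lay in 99 clusters, taken as hairpins on the same strand whose starts follow within 10 kb. Counts from these clusters made up 66.0% ± 0.291 of the total, and the 8 leading clusters made up 56.5% ± 0.385. A mature miRNA of several hairpins was split evenly over them. The leading cluster, MIR371A/MIR372/MIR373 at chr19:53787675-53788773 (plus strand), held 31.1%, 31.5% and 29.8% in Input replicates 1, 2 and 3. miR-372-3p made up 97.3% and miR-373-3p 2.50% of it, and both arms of miR-371a were listed at 0, in a locus that carries miR-371b on the opposite strand.

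The second cluster, MIR30B/MIR30D, held 11.8% ± 0.233 of counts, of which miR-30d-5p was 97.1% and miR-30b-5p 2.67%. The third, MIR192/MIR194-2/MIR6750/MIR6749 at chr11:64891137-64902455 (minus strand), held 4.31% ± 0.107. MIR192 and MIR194-2 both lie in exons of the lncRNA gene MIR194-2HG, and miR-192-5p made up 86.9% and miR-194-5p 12.7% of the cluster. Hairpins of 1 cluster thus differed widely in mature level, even where a transcript is annotated across them.

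The cluster MIR17/MIR18A/MIR19A/MIR20A/MIR19B1/MIR92A1, the oncogenic miR-17 to miR-92 polycistron at chr13:91350605-91351391 (plus strand), held 3.21% ± 0.200. With the even split, miR-92a-3p made up 69.6%, miR-20a-5p 15.99% and miR-17-5p 11.7% of it. Its members of single hairpins ranged from miR-20a-5p at 5128 ± 452 CPM and miR-17-5p at 3759 ± 318 CPM down to miR-18a-5p at 216 ± 25.6 CPM and miR-19a-3p at 197 ± 8.59 CPM. The paralogous cluster on the X chromosome, MIR363/MIR92A2/MIR19B2/MIR20B/MIR18B/MIR106A, was assigned 2.27% ± 0.129, of which 98.6% was its share of miR-92a-3p. Its members of single hairpins were low, with miR-106a-5p at 93.2 ± 5.99 CPM, miR-18b-5p at 8.04 ± 0.559 CPM and miR-20b-5p at 6.18 ± 0.215 CPM.

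The arms that tell the MIR92A hairpins apart differed in the same way. miR-92a-1-5p, from chromosome 13, had 1693, 1979 and 1577 counts in Input replicates 1, 2 and 3. miR-92a-2-5p, from the X chromosome, had 0 in all 3, which allows up to 3 counts per library. The even split, which places the X-linked cluster among the leading 8, is therefore a convention and not a measurement of that locus.

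The epithelial clusters came next. MIR200B/MIR200A/MIR429 at chr1:1167104-1169087 (plus strand) held 1.57% ± 0.0249, made up of miR-200b-3p (66.8%), miR-200a-3p (22.7%), miR-429 (5.82%) and miR-200a-5p (4.21%). MIR200C/MIR141 at chr12:6963699-6964191 (plus strand) held 1.45% ± 0.106, of which miR-200c-3p was 98.4% and miR-141-3p, at 178 ± 5.44 CPM, 1.23%. MIR182/MIR96/MIR183 at chr7:129770383-129775014 (minus strand) held 1.16% ± 0.0497, made up of miR-182-5p (63.4%), miR-183-5p (30.6%) and miR-96-5p (5.76%). miR-200c-3p thus outnumbered miR-141-3p from the same pair of hairpins far more than the members of the MIR200B and MIR182 clusters outnumbered each other.

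Marker miRNAs were read against lists for gut, for other tissues and for cancer, chosen with earlier results of these data known. The 3 intestinal miRNAs were all high, as the label of the line calls for: miR-192-5p, miR-194-5p and miR-215-5p summed to 49941, 51234 and 51145 CPM in Input replicates 1, 2 and 3. The 5 epithelial miRNAs of the miR-200 family summed to 29362 ± 1288 CPM, and each of them was at 100 CPM or more. Over all 2588 miRNAs listed the median level was 0.0807 CPM, and over the 1667 with a count it was 1.15 CPM. Of all miRNAs listed, 668, 630 and 652 were at 1 CPM or more in Input replicates 1, 2 and 3. On average over the libraries, 1013 of the 1667 with a count were under 1 CPM, and 172 of the 2588 were at 100 CPM or more. The counts of list members given here and below go by the mean level.

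Of 9 miRNAs known from early embryo and pluripotent cells, 7 were at 1 CPM or more, and the list summed to 308107 ± 9105 CPM. Nearly all of this was miR-372-3p. The miR-302 cluster, the hallmark of pluripotent stem cells, was present at much lower levels, with miR-302b-3p at 657 ± 18.2 CPM, miR-302a-3p at 110 ± 15.1 CPM, miR-302d-3p at 89.5 ± 6.67 CPM and miR-302c-3p at 55.9 ± 8.37 CPM. miR-367-3p, from the same primary transcript, had 21, 10 and 22 counts, a mean of 1.04 ± 0.457 CPM. Both arms of miR-371a were at 0 and lie in an overlapped locus.

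Of 10 miRNAs often raised in colorectal cancer, all were at 1 CPM or more and 9 at 100 CPM or more. miR-21-5p, miR-92a-3p, miR-182-5p, miR-20a-5p and miR-17-5p are given above. miR-183-5p was at 3550 ± 102.3 CPM, miR-224-5p at 1076 ± 85.3 CPM and miR-96-5p at 667 ± 11.1 CPM. miR-31-5p, at 194 ± 11.8 CPM, and miR-135b-5p, at 46.1 ± 4.02 CPM, were the lowest of the list.

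Among 16 miRNAs held to restrain growth, 15 were at 1 CPM or more, and the let-7 members led. Below let-7i-5p at 4483 ± 560 CPM came miR-16-5p (2 hairpins), a repressor of BCL2 and cyclins, at 1572, 1083 and 1526 CPM, lowest in Input replicate 2. Further down were miR-98-5p at 253 ± 10.9 CPM, let-7d-5p at 171 ± 7.28 CPM and let-7c-5p at 101.6 ± 8.21 CPM. The p53-responsive miR-34a-5p was at 122 ± 12.7 CPM and miR-34c-5p at 6.73 ± 1.15 CPM, while miR-34b-5p was at 0 in all 3 libraries. miR-15a-5p was at 21.5 ± 2.33 CPM, and miR-143-3p and miR-145-5p, also on this list, are given with the mesenchymal miRNAs. Members of this list thus ranged over more than 3 orders of magnitude.

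Markers of other tissues ranged widely. At 100 CPM or more on average were 1 of 6 muscle, 1 of 5 mesenchymal and 1 of 2 endothelial miRNAs. So were 1 of 8 blood, 3 of 6 nervous system and 0 of 1 liver miRNAs, against 172 of all 2588 listed. In the muscle list of 6, miR-1-3p (2 hairpins) was at 435, 410 and 476 CPM and miR-133a-3p (2 hairpins) at 41.5 ± 4.93 CPM, while miR-133b was at 1.63 ± 0.508 CPM, miR-206 was at 0.111 ± 0.0467 CPM, and miR-208a-3p and miR-499a-5p were listed at 0, the latter in an overlapped locus. Of 2 endothelial miRNAs, miR-126-3p was at 531 ± 16.7 CPM and miR-126-5p at 6.64 ± 1.43 CPM. In the list of 5 for smooth muscle and mesenchyme, miR-143-3p was at 119 ± 1.04 CPM, miR-199a-3p (2 hairpins) at 16.4 ± 1.03 CPM, miR-199b-5p at 4.15 ± 0.290 CPM and miR-145-5p at 2.73 ± 0.432 CPM. The last of that list, miR-214-3p, was at 0 and lies in an overlapped locus.

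Blood cell miRNAs numbered 8, of which 5 reached 1 CPM. miR-155-5p, of activated lymphocytes, led at 223 ± 7.75 CPM. The red cell miRNA miR-451a was at 5.52, 1.32 and 3.22 CPM, miR-142-3p at 4.09 ± 0.559 CPM, miR-142-5p at 1.79 ± 0.187 CPM and miR-144-3p at 1.14 ± 0.296 CPM. The myeloid miR-223-3p was at 0 in all 3 libraries. miR-486-5p (2 hairpins) was also listed at 0. Overlap between hairpins of the same miRNA was not looked at, so its 0 is not read as a lack of expression. Apart from miR-155-5p, and leaving miR-486-5p aside, no member passed 5.52 CPM in any library. miR-451a was the most uneven of those named with counts.

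In the nervous system list of 6, miR-128-3p (2 hairpins) was at 4129 ± 332 CPM, miR-9-5p (3 hairpins) at 1995 ± 10.3 CPM, miR-9-3p (3 hairpins) at 219 ± 10.3 CPM and miR-138-5p (2 hairpins) at 20.1 ± 3.26 CPM. The neuronal miR-124-3p had 3, 0 and 3 counts, and miR-137 had none. Of the endocrine pair, miR-375 was at 132 ± 4.66 CPM beside the far higher miR-7-5p. The hypoxia-induced miR-210-3p was at 865 ± 32.3 CPM. The liver miRNA miR-122-5p was listed at 0, in a locus overlapped by miR-3591, so it says nothing here.

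**Figure D3:**
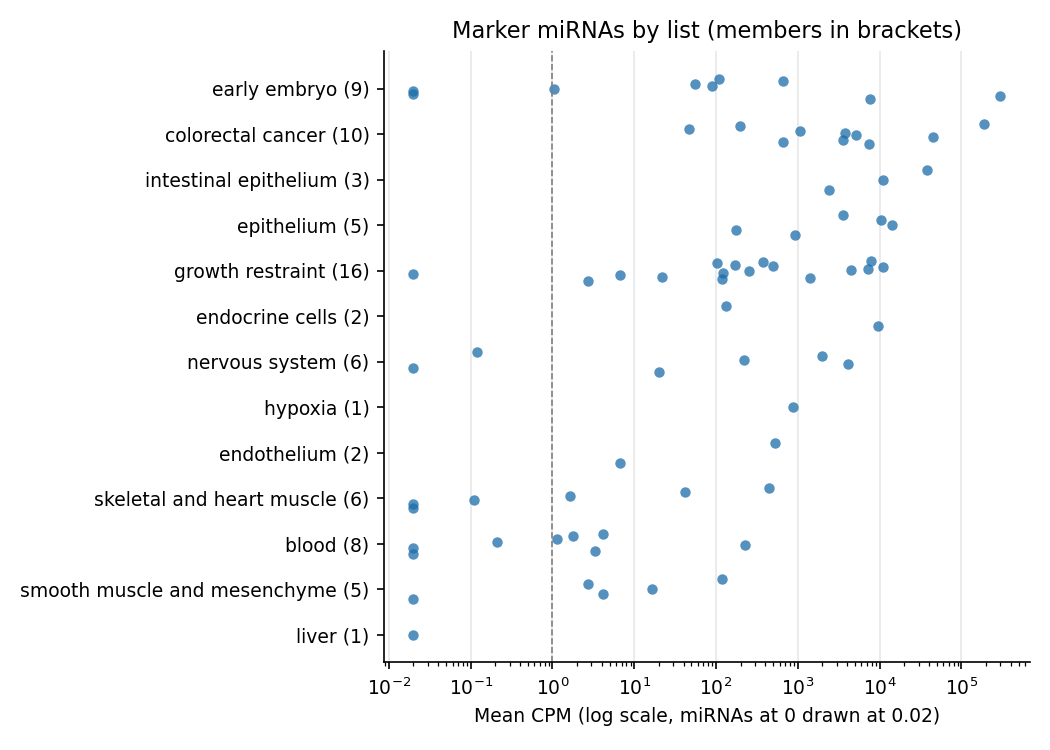
Mean CPM of n = 3 Input libraries (log scale) for each member of 13 marker lists, with the number of members in brackets, a dashed line at 1 CPM, and miRNAs at 0 drawn at 0.02. The intestinal and epithelial lists lie above 100 CPM throughout, while the early embryo list runs from miRNAs at 0 to miR-372-3p at 299508 CPM.

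Both arms were next compared within each hairpin. Of 838 pairs named as 5p and 3p arms, 389 had at least 10 counts over both arms in every library and were tested with edgeR's quasi-likelihood test, with the library as a block and Benjamini-Hochberg adjustment over the 389 pairs. At an adjusted p-value under 0.05, 346 pairs (88.9% of those tested) had unequal arms, 157 (40.4%) with the 5p arm higher and 189 (48.6%) with the 3p arm higher. Unequal arms were thus the rule, and neither arm was favoured by a wide margin. The leading arm held 93.8% of the counts of the median pair, at least 90% in 237 pairs and at least 99% in 107 pairs.

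Summed over all names, 5p arms held 49.97%, 50.03% and 51.03% of counts in Input replicates 1, 2 and 3, and 3p arms 48.5%, 48.4% and 47.4%. This near balance rested on miR-372-3p. Without it, 5p arms held 71.9% ± 0.283 and 3p arms 25.9% ± 0.312 of the remaining counts.

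Among the 117 pairs at 100 CPM or more over both arms, 66 had the 5p arm higher, 49 the 3p arm, and 2 were not called. The same arm was higher in 3 of 3 libraries in each of the 115 called pairs. The calls were made on these same libraries, so this is not separate support for them. The median absolute log2 ratio of the arms was 5.88, with quartiles of 3.46 and 8.45, and it was 3.91 over all 389 pairs. Both arms reached 100 CPM in 31 pairs. The pairs were not all separate. miR-365a and miR-365b had nearly the same 3p counts, and miR-500a and miR-500b nearly the same 5p counts. These pairs were picked after their values were seen.

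**Figure D4:**
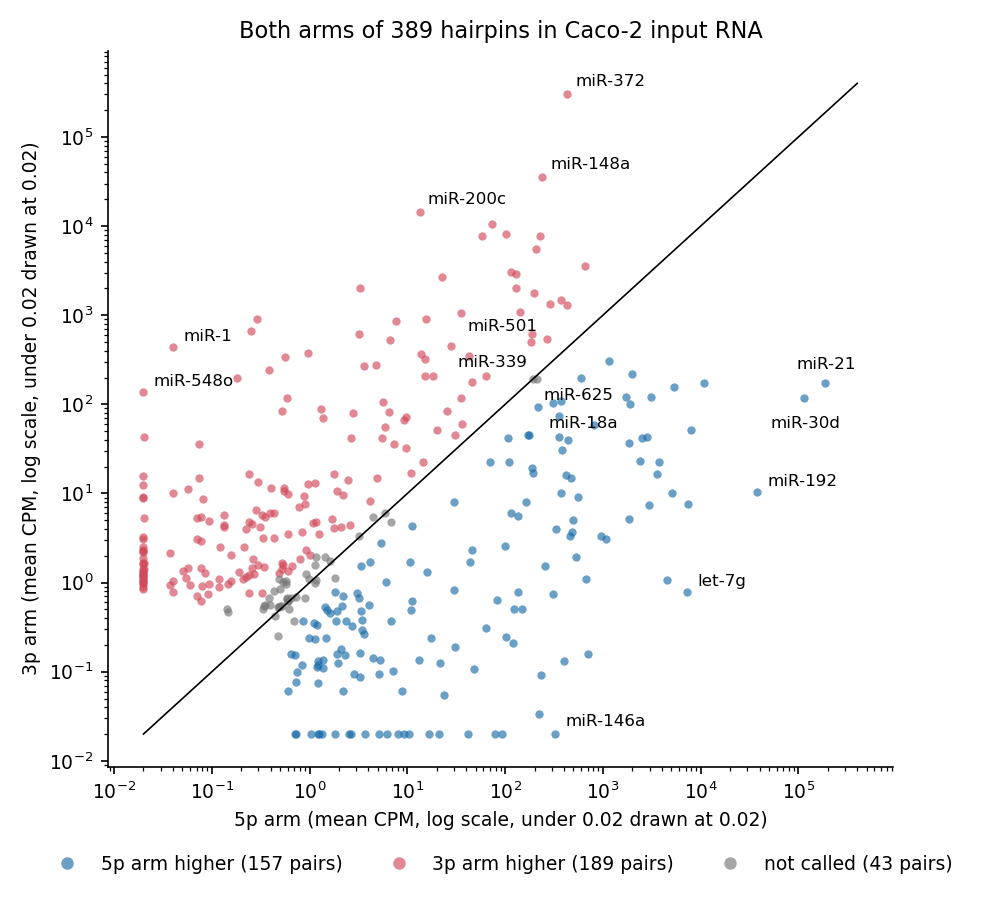
Mean CPM of the 3p arm against the 5p arm (log scales, n = 3 Input libraries, levels under 0.02 drawn at 0.02) for 389 hairpins, coloured by the arm called higher at an adjusted p under 0.05, with the line of equal arms. Most pairs lie far from the line, with miR-372 far above it, miR-21, miR-30d and miR-192 far below it, and miR-625 and miR-339 on it.

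In the pairs of the leading miRNAs the other arm was present at small but measurable levels. miR-372-5p was at 430 ± 22.2 CPM, so that the 5p arm made up 0.144% of the pair and the log2 5p/3p ratio was -9.45 ± 0.079 (SE, adjusted p = 4.08e-12). miR-373-5p was at 226 ± 39.3 CPM, 2.84% of its pair, at a log2 ratio of -5.10 ± 0.0787 (SE, adjusted p = 6.51e-11). The hairpins MIR372 and MIR373 thus both favoured the 3p arm, miR-373 less strongly.

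miR-21-3p was at 172 ± 12.0 CPM beside miR-21-5p, a log2 ratio of 10.11 ± 0.0751 (SE). miR-30d-3p was at 117 ± 3.89 CPM, a log2 ratio of 9.93 ± 0.0677, and miR-30b in the same cluster also favoured the 5p arm, at 4.71 ± 0.0715. miR-192-3p was at 10.3 ± 2.59 CPM, a log2 ratio of 11.84 ± 0.175. All of these were called with the 5p arm higher, and the largest adjusted p among the pairs of the 20 leading miRNAs was 1.11e-09, for miR-151a.

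miR-194 favoured the 5p arm at a log2 ratio of 5.97 ± 0.0624, which counts 2 hairpins for the 5p and 1 for the 3p arm and is 4.97 per hairpin. let-7a, with 3 hairpins for the 5p arm and 2 for the 3p arm, was at 7.27 ± 0.112, or 6.69 per hairpin. let-7g was at 13.21 ± 0.182 and miR-182 at 9.90 ± 0.131. On the 3p side, miR-200c was at -10.06 ± 0.0776, miR-148a at -7.21 ± 0.0672, miR-200b at -7.17 ± 0.0863, miR-378a at -7.05 ± 0.0687, miR-27b at -6.33 ± 0.0704 and miR-151a at -4.76 ± 0.115. The let-7 members named here kept the 5p arm and the miR-200 members the 3p arm.

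For miR-92a, miR-26a, let-7f and miR-7 the other arm is named by locus and was not tested. miR-92a-1-5p was at 99.4 ± 3.19 CPM against 44665 for miR-92a-3p. miR-26a-1-3p and miR-26a-2-3p were at 3.73 ± 0.550 and 6.88 ± 0.864 CPM against 35385 for miR-26a-5p. let-7f-1-3p and let-7f-2-3p were at 5.59 ± 0.183 and 13.1 ± 2.15 CPM, and miR-7-1-3p was at 7.63 ± 0.313 CPM. miR-7-2-3p and miR-92a-2-5p were listed at 0, the former in a locus overlapped by miR-3529, and are not used here. Against the partner arms with counts, the arm named among the 20 leading miRNAs was by far the higher.

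Within a cluster the hairpins did not all keep the same arm. In the miR-17 to miR-92 cluster, miR-20a (log2 ratio 8.99), miR-17 (7.39) and miR-18a (1.22) had the 5p arm higher and miR-19a (-10.11) the 3p arm. The size of the miR-19a ratio rests on 0, 1 and 8 counts of its 5p arm in Input replicates 1, 2 and 3, and without Input replicate 3 it was -12.50. In the miR-200b cluster and the miR-200c cluster, all 4 pairs had the 3p arm higher, with miR-200a at -2.43 and miR-141 at -1.95 the nearest to balance. The members of MIR182/MIR96/MIR183 all had the 5p arm higher, at 9.90, 9.28 and 7.75 in that order. Of the miR-302 pairs, named here after their values were seen, miR-302a had the 5p arm higher, with miR-302a-5p at 375 ± 16.6 CPM, while miR-302b, miR-302c and miR-302d had the 3p arm higher.

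The most one-sided pairs at 100 CPM or more on the 5p side were miR-146a, let-7g, miR-155, miR-205 and let-7i. miR-146a-5p, an inhibitor of NF-kappaB signalling, was at 327 ± 21.2 CPM, against a total of 1 count for its 3p arm, a ratio of 17190 with an exact 95% counting interval from 3085 to 679008. miR-155-5p had a total of 2 counts in its 3p arm, a ratio of 5868 with an interval from 1624 to 48456. miR-205, of stratified epithelium, was at a log2 ratio of 12.12 ± 0.175 (SE) with miR-205-5p at 709 ± 16.5 CPM, and let-7i was at 12.02 ± 0.10. A few counts of the minor arm thus set such ratios, and both miR-146a-3p and miR-155-3p were at 0 outside Input replicate 2.

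On the 3p side the most one-sided by the fitted ratio were miR-548o, miR-1, miR-101, miR-302b and miR-19a. miR-548o-3p (2 hairpins) was at 136 ± 4.31 CPM while miR-548o-5p was at 0 in all libraries, so the 3p arm was at least 798-fold higher against a floor of 3 counts per library. That bound lies below the ratios of miR-19a and miR-200c, so the place of miR-548o among the most one-sided rests on a fit to an arm at 0. miR-548o belongs to a large family of near-identical hairpins, and its reads could be split among them. miR-1-3p had a total of 2 counts in its 5p arm, a ratio of 11568 with an interval from 3202 to 95522, which counts 2 hairpins for the 3p arm and 1 for the 5p arm. Both of those counts were in Input replicate 1. miR-101, with the same difference in hairpins, was at a log2 ratio of -11.59 ± 0.149, and miR-302b at -11.34 ± 0.149.

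Pairs with nearly equal arms were few among abundant hairpins, with 2 of 117 at an absolute log2 ratio under 1. miR-625-5p was at 193 ± 2.75 CPM and miR-625-3p at 192 ± 2.58 CPM, a log2 ratio of 0.00068 ± 0.0822 (SE, adjusted p = 0.994). Counts were 3254, 3728 and 3165 for miR-625-5p and 3251, 3732 and 3160 for miR-625-3p in Input replicates 1, 2 and 3. These are closer than the counting error of separate reads would give. Whether both names carry the same reads was not tested, so this pair is not read as a balance of arms. miR-339-5p was at 210 ± 1.19 CPM and miR-339-3p at 190 ± 12.96 CPM, a ratio of 0.14 ± 0.0861 (SE, adjusted p = 0.152). Neither was called, which does not show that the arms were equal.

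Next to these, the called pairs of smallest ratio on the 5p side were miR-18a, miR-15b (1.37 ± 0.149), miR-130b (1.58 ± 0.150), miR-455 (1.61 ± 0.114) and miR-302a (1.78 ± 0.112). On the 3p side they were miR-501 (-1.01 ± 0.0703), miR-361 (-1.47 ± 0.0798), miR-483 (-1.60 ± 0.0640), miR-331 (-1.70 ± 0.0922) and miR-330 (-1.75 ± 0.108). For miR-483, encoded in IGF2, this left 433 ± 73.3 CPM for the 5p and 1302 ± 152 CPM for the 3p arm. The largest adjusted p among these 10 pairs was 3.49e-05, for miR-15b, and each hairpin yielded both arms at 35.5 CPM or more.

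The first base differed between leading and minor arms. In 98 called pairs at 100 CPM or more with both sequences known, the leading arm began with U in 62 (63.3%), A in 21, C in 9 and G in 6. The minor arm began with U in 13 (13.3%), A in 33, C in 40 and G in 12. In 57 pairs the leading arm alone began with U, and in 8 pairs the minor arm alone did. Argonaute proteins are known to bind a 5′ U or A more readily, which is background and was not measured here.

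U was the first base of 36.7% of the 2281 miRNAs with a sequence, of 48.3% of the 267 of these at 10 CPM or more, and of 52.3% ± 0.781 of their counts. These shares, and those of length, are of the 86.8% of counts with a known sequence, which leaves out miR-30d-5p. A began 38.3% of these counts, most of them from miR-372-3p, and without that miRNA A began 5.78% and U 79.8%. miRNAs of 22 bases made up 48.1% and those of 23 bases 42.3% of these counts, and without miR-372-3p, itself of 23 bases, 73.5% and 11.8%. A single miRNA thus weighed heavily on the base and length profile of the sequenced miRNAs.

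The 3 libraries were alike but not copies. Over 318 miRNAs at 10 CPM or more on average, the Pearson correlation of log2 CPM was 0.996 between Input replicates 1 and 2, 0.999 between 1 and 3, and 0.998 between 2 and 3, across miRNAs that share each library. Counts differed by more than counting error, the chi-square statistic over its degrees of freedom lying between 17.5 and 49.4 for the pairs of libraries. The median CV was 7.15%, and without Input replicate 2 it was 3.55%, so that library contributed most of the spread. Relative to the mean of the other libraries, 13 miRNAs were over 1.5-fold lower in Input replicate 2 and none was over 1.5-fold higher. This count is on plain CPM. The TMM scaling factors were 1.036, 0.943 and 1.024 in Input replicates 1, 2 and 3, and the count was not repeated with them.

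The spread fell with the level and then flattened. The median CV was 17.6% for 336 miRNAs from 1 to 10 CPM, where counting alone gives 15.7%, and 9.40% for 146 miRNAs from 10 to 100 CPM, where counting gives 4.65%. For 118 miRNAs from 100 to 1000 CPM it was 6.03% against 1.60% from counting, and for the 11 at 10000 CPM or more it was 4.25% against 0.126%. From 10 CPM up the median CV of each class thus lay well above the value from counting. That value treats each count as a separate read, and the source of the remaining spread was not tested. edgeR's common biological CV, which here covers whatever differs between the libraries, was 10.2%.

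**Figure D5:**
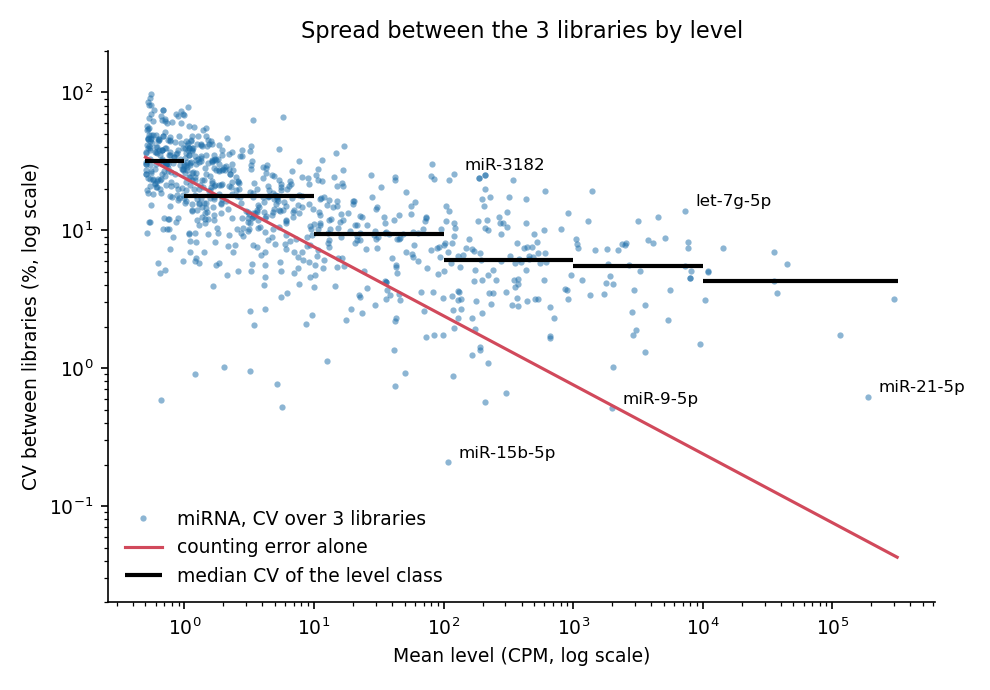
CV of CPM over the 3 Input libraries (%, log scale) against mean CPM (log scale) for each miRNA at 0.5 CPM or more, with black bars at the median CV of each level class and a red line at the CV that counting alone gives. The class medians follow the red line up to about 10 CPM and stay near 4% to 6% above 100 CPM. Single miRNAs above 100 CPM range from 0.208% to 25.4%.

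Of the 172 miRNAs at 100 CPM or more on average, the steadiest were miR-15b-5p (CV 0.208%), miR-9-5p (0.515%), miR-339-5p (0.567%), miR-21-5p (0.621%) and miR-30e-3p (0.657%). For miR-15b-5p, at 108, 107 and 107 CPM, the CV lay below the 2.30% of counting error. The CV was also below counting error for miR-9-5p (0.534%), miR-339-5p (1.65%) and miR-30e-3p (1.37%), so the spread of these 4 cannot be told from counting error. miR-21-5p combined the second highest level with a spread among the lowest.

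The most variable were miR-3182, miR-365a-3p, miR-365b-3p, miR-500a-5p and miR-500b-5p. miR-3182 was at 143, 85.6 and 133 CPM in Input replicates 1, 2 and 3 (CV 25.4%). miR-365a-3p was at 256, 152 and 216 CPM (CV 25.1%), and miR-365b-3p, of the same sequence, had counts of 4255, 2984 and 3558 against 4257, 2984 and 3558, so both names carry the same reads. miR-500a-5p was at 230, 141 and 192 CPM (CV 23.8%). Its counts were 3835, 2770 and 3162, against 3837, 2773 and 3169 for miR-500b-5p. Whether these names carry the same reads was not tested. All 5 names were lowest in Input replicate 2, but they are not 5 separate signals.

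Across 281 of the 318 miRNAs with a known sequence, the deviation of Input replicate 2 from the other libraries had a Pearson correlation of -0.19 with the percentage of G and C in the mature sequence, and that of Input replicate 1 had 0.24. The median percentage of G and C was 55.6 among the miRNAs lowered over 1.5-fold in Input replicate 2, against 47.8 among all 281. The part of base composition in these differences was not tested.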

How the data were processed

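Total RNA of Caco-2 cells was made into small RNA libraries with the NEBNext kit and sequenced. The authors trimmed reads with Trimmomatic, aligned them to GRCh38 and counted them on mature miRNAs of miRBase 22 with featureCounts. The study's methods name STAR, with up to 10 loci and 1 mismatch per read, whereas the submitters' processing notes name Bowtie2. How reads of several loci were counted is not given in the sources used here. The deposited values are raw counts, not normalized and not pooled. Only the 3 Input columns were used, and 0 columns lacked a sample.

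Counts were divided by the column total (CPM). Depth was 16466178 to 19628046 counts. Reads carry no molecular identifiers, so floors and intervals cover counting error only. Seeds and sequences came from RefSeq (GRCh38.p14), and hairpin positions from GENCODE 44 (GRCh38). A sequence matched 2281 and a hairpin 2562 of 2588 names. Arms were paired by name, and 5p and 3p counts were tested with edgeR 4.0.16 (quasi-likelihood, R 4.3.3, library totals as library sizes, library as a block). A pair was tested with at least 10 counts over both arms in every library and called at an adjusted p under 0.05. The SE of a log2 ratio is its size over the square root of F. The step was tested on simulated data. Alternatives used DESeq2 1.42.0, limma 3.58.1 with a pseudocount of 1 count, TMM or size factors, other filters, other cluster distances and seeds, and left out each library. Tables used Python 3.11.15, and correlations of log2 CPM a pseudocount of 0.5 CPM.

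Named are the 20 leading miRNAs, the 8 leading clusters and families with members of at least 1%, the 5 pairs at each end of the arm ratio at 100 CPM or more with all pairs not called, the 5 steadiest and 5 most variable miRNAs, and list members at 1 CPM or more. Members and lists were chosen with earlier results of these data known.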

Additional observations from a re-analysis of the deposited data

How the results depend on the processing

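Both arms of a pair come from the same library, so the library was kept as a block. Without the replicate block, 159 pairs had the 5p and 194 the 3p arm higher, and it changed no call among the named pairs. Asking for at least 100 counts over both arms left 202 pairs, of which 97 had the 5p and 99 the 3p arm higher, since fewer pairs were tested. The other arm alternatives (DESeq2, limma, no filter, an absolute log2 ratio of at least 1, no overlapped arms, and leaving out each replicate) gave 146 to 168 pairs with the 5p and 182 to 216 with the 3p arm higher, and all 360 refits of the named pairs gave the call reported. Called pairs kept their direction, and the uncalled miR-625 went from 0.00068 to -0.00011 without Input replicate 3. Pairs whose minor arm had few counts moved most on leaving out a replicate: miR-1 to -15.96 without Input replicate 1, miR-146a and miR-155 to 15.46 and 14.88 without Input replicate 2, fitted against an arm at 0. With the 41 arms at 0 in all libraries set to 3 counts per library, the median absolute log2 ratio over all pairs was 3.56 in place of 3.91. Counting miRNAs with at least 1 count in every library, in place of 10 CPM, gave 1223. The median CV was 6.43% with TMM-corrected library sizes, 23.0% with no filter beyond 1 count in every library, 5.73% at 100 CPM or more, and 3.55% to 7.22% when 1 replicate was left out, the lowest without Input replicate 2. With counts divided by the number of loci, an alternative chosen after seeing the data, the leading cluster held 33.4% and the leading seed family 33.5% of counts. Of 139 recomputed levels of the 20 leading miRNAs, 38 moved by more than 1 SD, all of them on leaving miR-372-3p out of the totals or dividing by loci. From 10 CPM up the median CV of each level class lay above the value from counting alone.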
